A study of Mus musculus with 4 samples.

Results

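The 10 genes described here are growth genes that immature olfactory sensory neurons (OSNs) express while they extend an axon. They were *Gap43*, *Gng8*, *Stmn1*, *Stmn2*, *Dpysl3*, *Dpysl5*, *Crmp1*, *Tubb3*, *Dcx*, and *Marcksl1*, chosen by name from the 24421 genes with values, and all 10 had a value above 0 in each library. The study sorted dissociated cells of the mouse main olfactory epithelium (MOE) by FACS and sequenced their RNA. One transgenic line carries TAAR enhancer 1, the mouse Hsp68 minimal promoter, and *GFP*, and gave 1 library of GFP-positive and 1 of GFP-negative cells. The other carries TAAR enhancer 2, the same promoter, and *tdTomato*, and gave 1 library of tdTomato-positive and 1 of tdTomato-negative cells. Each transgene was studied in a single founder line, so that the enhancer, the reporter, and the site of integration cannot be told apart between the lines. The labels give C57BL/6 as the strain and call all mice adult, whereas the study's Reporting Summary gives mixed C57BL/6J and 129 backgrounds, an age of 14 days after birth for the GFP line, and 14 to 21 days for the tdTomato line. If the ages differed, age cannot be told apart from the enhancer, the reporter, and the site of integration either.

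OSNs are replaced throughout life. Globose basal cells divide and give rise to neuronal precursors, which become immature OSNs that grow an axon toward the olfactory bulb, and these become mature OSNs that express *Omp* and the odorant transduction genes. The growth genes serve axon extension. GAP43 and MARCKSL1 act at the membrane and the actin cytoskeleton of the growth cone, stathmins and collapsin response mediator proteins (CRMPs) regulate microtubules, and TUBB3 and DCX are parts of neuronal microtubules. *Gap43* and *Gng8* are widely used to mark immature OSNs.

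Values are TPM, in which reads are divided by transcript length and each library is set to a total of 1000000, so levels can be compared between genes. Fold changes were calculated as the difference of log2(TPM + 1) between reporter-positive and reporter-negative cells of a line, which understates changes of low genes. With 1 library per group there is no replicate error, no p-values were calculated, and a gene was counted as higher or lower when it differed at least 2-fold. Sequencing depth is unknown, since TPM does not keep it. The 10 genes with the highest TPM held from 5.72% to 31.5% of a library, the latter in GFP-positive cells, and the number of genes above 0 TPM was between 15096 and 16840. All 12 markers of mature OSNs were above 0 in all 4 libraries.

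Every growth gene had a lower TPM value in reporter-positive than in reporter-negative cells, in both lines. In the GFP line, all 10 were at least 2-fold lower, against 45.0% of the 16173 genes that reached 1 TPM in either library of that line, and none was 2-fold higher, against 14.2%. In the tdTomato line, 6 of the 10 were at least 2-fold lower, against 23.2% of 15777 genes, and none was 2-fold higher, against 17.2%. With median-ratio scaling, 7 growth genes were 2-fold lower in the GFP line, without *Stmn1*, *Dpysl3*, and *Marcksl1*, against 21.7% of all genes, and 4 in the tdTomato line, without *Stmn1* and *Crmp1*, against 19.9%. At a 4-fold threshold, 7 growth genes were lower in the GFP line, against 16.7% of all genes, and 0 in the tdTomato line, against 11.4%. The 6 genes that were 2-fold lower in both lines were *Gng8*, *Stmn1*, *Dpysl3*, *Dpysl5*, *Crmp1*, and *Marcksl1*, compared with 15.4% of the 15033 genes at or above the minimum in both. None was 2-fold higher in both, against 8.42%. The median log2 fold change of the growth genes was -2.14 in the GFP line and -1.05 in the tdTomato line, and that of all genes was -0.88 and -0.23. When libraries were instead scaled to mature OSN markers, the direction turned in the GFP line, where the median was 0.90, and the median of the tdTomato line came to 0.0055. In sorted cell mixtures, fewer cells of a type and less RNA per cell cannot be told apart.

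**Figure D1:**
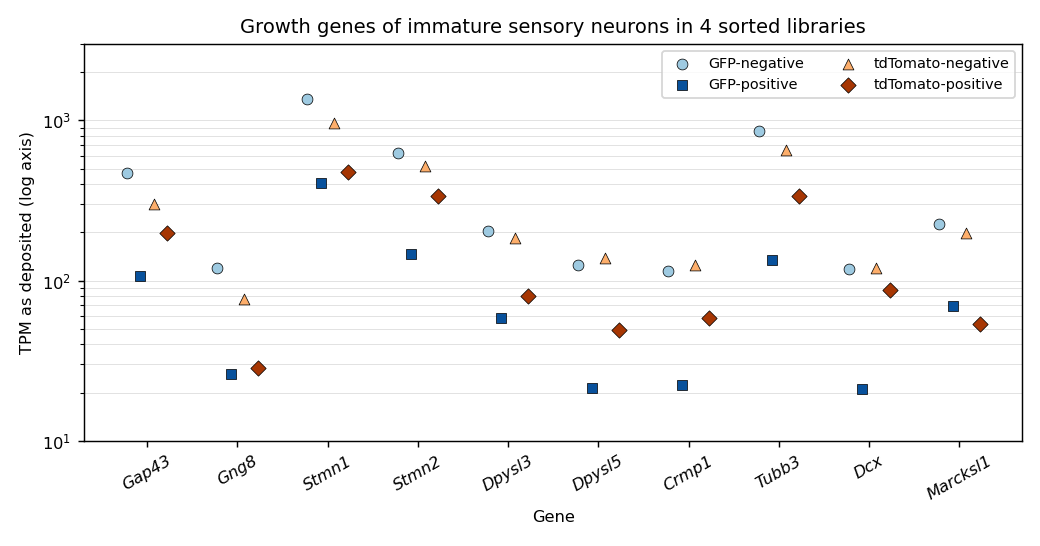
TPM of each growth gene (log axis) in the GFP-negative, GFP-positive, tdTomato-negative, and tdTomato-positive libraries, with 1 point per library and no error bars because each group has 1 library. For every gene both reporter-positive points lie below both reporter-negative points, on the scale of the deposited TPM.

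*Gap43* encodes a phosphoprotein of the growth cone membrane and lies on chromosome 16 of GRCm38 from 42248442 to 42340651 on the minus strand. Its TPM was 471.2 in GFP-negative, 107.6 in GFP-positive, 302.2 in tdTomato-negative, and 199.6 in tdTomato-positive cells. It thus kept 22.8% of the reporter-negative level in the GFP line and 66.1% in the tdTomato line, with log2 fold changes of -2.12 and -0.60. *Marcksl1*, which encodes a relative of MARCKS that binds actin, lies on chromosome 4 from 129513581 to 129515985 on the plus strand. Its TPM was 224.8 and 69.6 in GFP-negative and GFP-positive cells, and 199.6 and 53.6 in tdTomato-negative and tdTomato-positive cells. *Marcksl1* was the least reduced of the growth genes in the GFP line (log2 fold change -1.68) and the most reduced in the tdTomato line (-1.88). It was also the 1 gene with a lower TPM in tdTomato-positive than in GFP-positive cells.

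*Gng8* encodes a gamma subunit of heterotrimeric G proteins that is found in immature OSNs, while *Gng13* encodes the gamma subunit of mature OSNs. *Gng8* lies on chromosome 7 from 16891786 to 16895436 on the plus strand. Its TPM was 120.02 in GFP-negative and 26.0 in GFP-positive cells, a log2 fold change of -2.16. In the tdTomato line it was 76.9 in negative and 28.5 in positive cells, a log2 fold change of -1.40. The levels in both kinds of reporter-positive cells were close to each other, whereas those in reporter-negative cells differed by -0.63 on the log2 scale (tdTomato-negative minus GFP-negative). *Gng8* amounted to 4.16 TPM per 100 TPM of *Gng13* in GFP-negative and 7.18 in GFP-positive cells. The ratio went the other way in the tdTomato line, at 3.08 in negative and 2.36 in positive cells. Of 9 other gamma subunit genes that reached 1 TPM, 4 were at least 2-fold lower and 3 higher in the GFP line, and 3 were lower and 2 higher in the tdTomato line, among them *Gng5*, a broadly expressed subunit, with log2 fold changes of 2.31 and 2.02. Of all genes, 45.0% were lower and 14.2% higher in the GFP line, and 23.2% lower and 17.2% higher in the tdTomato line.

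The CRMPs are cytosolic proteins that bind tubulin and act downstream of semaphorins, which repel growing axons. *Dpysl3* (chromosome 18, 43320984 to 43438286, minus strand) was the highest of the 3 in all libraries, with 204.3 TPM in GFP-negative, 58.8 in GFP-positive, 184.8 in tdTomato-negative, and 80.1 in tdTomato-positive cells. *Dpysl5* (chromosome 5, 30711564 to 30799375, plus strand) was at 124.4, 21.4, 138.1, and 49.3 TPM in the same order. *Crmp1* (chromosome 5, 37241940 to 37292133, plus strand) was at 115.7, 22.2, 125.8, and 58.9 TPM. *Dpysl5* and *Crmp1* were thus nearly level with each other in 3 of the 4 libraries, tdTomato-positive cells being the exception, and both were higher in tdTomato-negative than in GFP-negative cells, unlike most growth genes. *Dpysl3* had log2 fold changes of -1.78 in the GFP line and -1.20 in the tdTomato line, *Dpysl5* of -2.49 and -1.47, and *Crmp1* of -2.33 and -1.08. *Crmp1* overlaps *Evc* on the opposite strand, and *Evc* was at most 1.55 TPM in any library.

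Stathmins bind tubulin dimers and promote the disassembly of microtubules. *Stmn1* (chromosome 4, 134468320 to 134473843, plus strand), which is also expressed in dividing cells, was the highest growth gene in every library. Its TPM was 1365 in GFP-negative, 408.3 in GFP-positive, 967.5 in tdTomato-negative, and 476.2 in tdTomato-positive cells, with log2 fold changes of -1.74 and -1.02. Of the 50-base windows of its longest coding transcript, 36.5% also occur in transcripts of other annotated genes, *Gm11223* among them, so its value depends on how shared reads were assigned. *Stmn2* (chromosome 3, 8509360 to 8561606, plus strand), the neuronal stathmin of growth cones, shares no such window. Its TPM was 623.5, 146.5, 520.6, and 337.4 in the same order. *Stmn2* therefore kept 23.5% of the reporter-negative level in the GFP line and 64.8% in the tdTomato line, values close to those of *Gap43*.

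*Tubb3*, the beta-tubulin of neurons, lies on chromosome 8 from 123411424 to 123422015 on the plus strand, where another annotated gene, *Gm20388*, overlaps it on the same strand. Its TPM was 854.1 in GFP-negative, 134.7 in GFP-positive, 654.5 in tdTomato-negative, and 337.5 in tdTomato-positive cells. *Tubb3* had the strongest reduction of the 10 in the GFP line, to 15.8% (log2 fold change -2.66), and was reduced to 51.6% (-0.95) in the tdTomato line, just short of 2-fold. *Dcx* encodes doublecortin, which binds and stabilizes microtubules of migrating and growing neurons, and lies on the X chromosome from 143855842 to 143933311 on the minus strand. Its TPM was 117.8 in GFP-negative and 21.0 in GFP-positive cells, and 119.8 in tdTomato-negative and 87.4 in tdTomato-positive cells. *Dcx* differed by 0.02 on the log2 scale between the negative libraries but differed more between the positive libraries than any other growth gene, by 2.01. It had the smallest change of the 10 in the tdTomato line, a log2 fold change of -0.45, compared with -2.43 in the GFP line.

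Because the growth genes were lower together, their promoters were searched for short motifs of factors that act in OSNs. Promoter sequences from RefSeq (GRCm38.p6) were available for 6 of the 10 genes, and the 250 bases that they give before a transcript start were read on both strands. The *Tubb3* window ran to 123411552, past the gene start given above, and no annotated transcript start was found near its end. The first *Crmp1* window also ran past the gene start, to 37242057. The EBF core CCCNNGGG was found for *Dpysl5* alone, at 2 places, and occurs in 11.8% of all 32851 promoters of this length. The homeodomain motif TAATTA was found for *Dcx* alone, against 4.84% of all promoters. The E-boxes CAGCTG and CAGATG, found in 13.0% and 14.4% of all promoters, were in none of the 6. No motif was shared between the growth genes in these windows, which says nothing about sites elsewhere. The promoter of *Dpysl5*, the first of 2 overlapping promoters of *Dcx*, which share the match, and that of *Gng8*, the marker of immature OSNs among the 6, are given 5′ to 3′ along the strand of the gene, with motif matches in capitals. They lie at chr5:30711314-30711563 (plus strand) for *Dpysl5*, chrX:143933220-143933469 (minus strand) for *Dcx*, and chr7:16891536-16891785 (plus strand) for *Gng8*.
Dpysl5: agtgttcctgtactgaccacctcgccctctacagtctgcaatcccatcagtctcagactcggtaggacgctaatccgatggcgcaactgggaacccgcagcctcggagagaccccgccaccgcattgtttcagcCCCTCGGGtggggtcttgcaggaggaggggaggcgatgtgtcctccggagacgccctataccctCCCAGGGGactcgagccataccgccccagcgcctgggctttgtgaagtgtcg
Dcx: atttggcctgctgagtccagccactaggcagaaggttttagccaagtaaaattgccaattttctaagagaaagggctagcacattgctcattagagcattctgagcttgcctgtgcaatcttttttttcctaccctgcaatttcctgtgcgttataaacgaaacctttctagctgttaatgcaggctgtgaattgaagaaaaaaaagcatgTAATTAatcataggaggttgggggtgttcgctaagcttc
Gng8: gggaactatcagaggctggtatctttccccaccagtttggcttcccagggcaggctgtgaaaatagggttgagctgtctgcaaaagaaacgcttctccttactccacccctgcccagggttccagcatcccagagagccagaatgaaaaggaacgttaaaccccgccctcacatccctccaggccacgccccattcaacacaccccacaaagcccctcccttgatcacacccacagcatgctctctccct

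**Figure D2:**
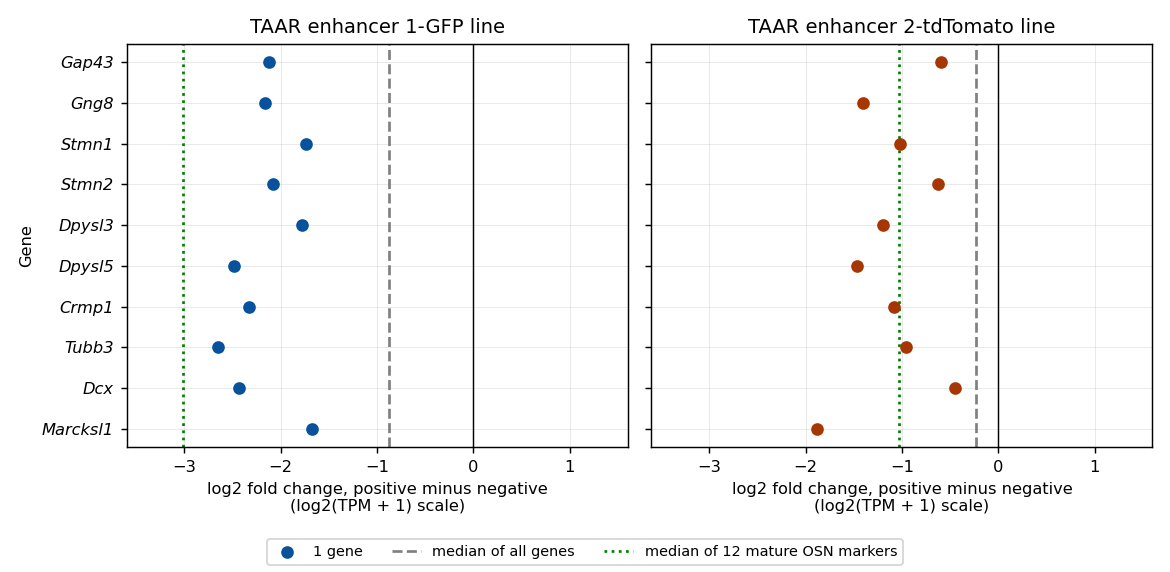
Log2 fold change (reporter-positive minus reporter-negative, log2(TPM + 1) scale) of each growth gene in both lines, with 1 point per gene and no error bars. In TPM as deposited all points lie below 0. In the GFP line they lie between the median of all genes (dashed, -0.88) and that of the mature OSN markers (dotted, -3.02), and in the tdTomato line they lie on both sides of the mature OSN median (-1.03). Relative to the mature OSN markers the growth genes of the GFP line were therefore higher, not lower, as were most genes. Scaled to these markers, 76.9% of all genes were at least 2-fold higher in the GFP line, and 3 growth genes were.

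Growth genes were next compared with the genes of mature OSNs, since a ratio within 1 library does not depend on its scaling. The summed TPM of the 10 growth genes was 4221 in GFP-negative, 1016 in GFP-positive, 3290 in tdTomato-negative, and 1709 in tdTomato-positive cells. The summed TPM of the 12 mature OSN markers was 27746, 3053, 28567, and 12778 in the same order. Per 100 TPM of mature OSN markers there were 15.2 TPM of growth genes in GFP-negative and 33.3 in GFP-positive cells, a change of 1.13 on the log2 scale. In the tdTomato line there were 11.5 in negative and 13.4 in positive cells, a change of 0.22 that did not keep its direction: it was -0.19 with GFP-negative cells as the control and -0.0054 when mean log2 values of the lists were used. GFP-positive cells thus stood apart from the other 3 libraries, which lay between 11.5 and 15.2. Most genes rose against these markers in the GFP line, with a median log2 fold change of 2.00 over all genes. *Gap43* per 100 TPM of *Omp* was 4.92 in GFP-negative, 9.72 in GFP-positive, 2.99 in tdTomato-negative, and 4.51 in tdTomato-positive cells.

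**Figure D3:**
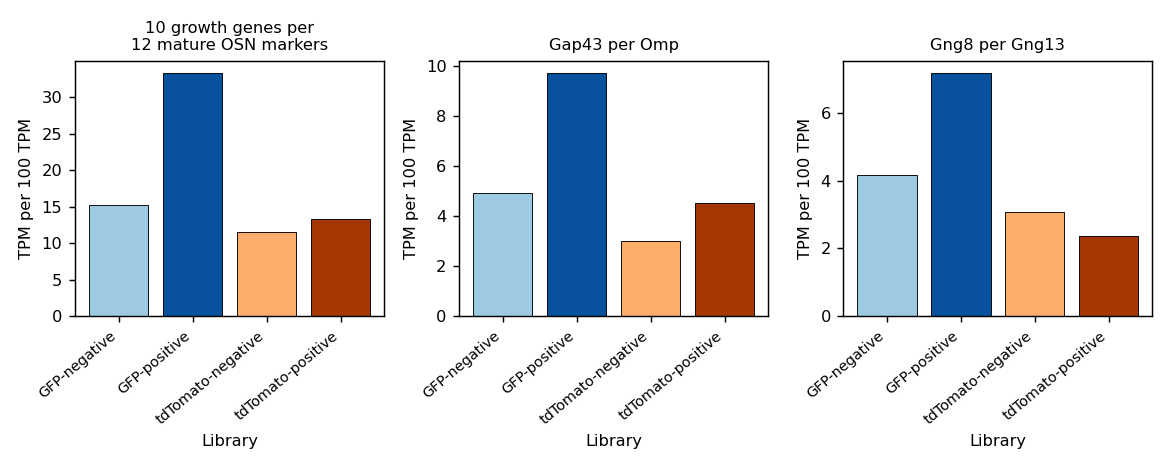
TPM of growth genes per 100 TPM of mature OSN genes in each library, as the sum of 10 growth genes over the sum of 12 mature OSN markers (left), *Gap43* over *Omp* (middle), and *Gng8* over *Gng13* (right), with bars from 0 and 1 library per bar. GFP-positive cells have the highest bar in all 3 panels (33.3, 9.72, and 7.18), and tdTomato-positive cells have the lowest *Gng8* bar (2.36).

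Single growth genes followed this ratio to different degrees. After each library was scaled so that the mature OSN markers had equal mean log2 values, all 10 were higher in GFP-positive than in GFP-negative cells, by 0.41 (*Tubb3*) to 1.38 (*Marcksl1*) on the log2 scale. Of these, *Marcksl1*, *Stmn1*, and *Dpysl3* were at least 2-fold higher, but so were 76.9% of all genes at this scaling, whose median log2 fold change was 2.00. None was 2-fold lower, against 7.77%. The median of the growth genes (0.90) thus lay between those of the mature OSN markers (0.043) and of all genes. In the tdTomato line, 5 were higher and 5 lower at this scaling, from -0.82 (*Marcksl1*) to 0.60 (*Dcx*), and none differed 2-fold, while 39.0% of all genes were 2-fold higher and 12.3% were 2-fold lower.

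The growth genes also differed in their shares of their own sum, which is likewise free of scaling. *Stmn1* made up 32.3% of the sum in GFP-negative and 40.2% in GFP-positive cells, and *Tubb3* went from 20.2% to 13.3%. In the tdTomato line, *Stmn1* made up 29.4% in negative and 27.9% in positive cells, and *Tubb3* 19.9% and 19.8%. *Stmn2* made up 15.8% there in negative and 19.7% in positive cells, and *Marcksl1* 6.07% and 3.14%. In the GFP line the share of *Marcksl1* was 5.33% in negative and 6.85% in positive cells.

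The 2 reporter-negative libraries come from different lines and are not replicates, but both hold the cells left outside the reporter gate. Between them no growth gene differed 2-fold, whereas 11.4% of 15899 genes were at least 2-fold higher and 12.4% at least 2-fold lower in tdTomato-negative cells. Their log2 differences (tdTomato-negative minus GFP-negative) ranged from -0.64 (*Gap43*) to 0.15 (*Dpysl5*), with a median of -0.22, and that of all genes was 0.05. Between the reporter-positive libraries, 9 of the 10 growth genes were higher in tdTomato-positive than in GFP-positive cells, with a median log2 difference of 1.03. Most genes were higher there as well, since the median of all genes was 0.69 and 24.8% of them were lower. For 5 of them, *Stmn2*, *Dpysl5*, *Crmp1*, *Tubb3*, and *Dcx*, the difference was at least 2-fold, against 34.9% of 15121 genes, and none was 2-fold lower, against 11.7%. The log2 fold changes of these 2 comparisons have no replicate error, so a difference between the lines was not tested.

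Relatives of the growth genes were examined as a list of 18 genes of the same families that are not among the 10. Of the 17 that reached 1 TPM, 11 were at least 2-fold lower and none was higher in the GFP line, and 6 were lower and 1 was higher in the tdTomato line, with medians of -1.53 and -0.67. Of all genes, 45.0% were 2-fold lower and 14.2% higher in the GFP line, and 23.2% and 17.2% in the tdTomato line. *Stmn3*, a neuronal stathmin gene, had log2 fold changes of -2.28 and -0.64, beside -2.08 and -0.62 for *Stmn2*. *Stmn4*, another, had larger ones of -2.73 and -1.15. *Stmn4* was at 641.7 TPM in GFP-negative and 95.8 in GFP-positive cells, and at 466.05 in tdTomato-negative and 209.4 in tdTomato-positive cells. Tubulins differed among themselves. *Tubb2b*, a beta-tubulin of developing neurons, was 426.2 and 111.2 TPM in GFP-negative and GFP-positive cells and 332.5 and 165.7 TPM in the tdTomato line, at least 2-fold lower in each. *Tuba1b*, a broadly expressed alpha-tubulin, was 327.4 and 302.7 TPM in the GFP line and 148.3 and 517.5 TPM in the tdTomato line, the 1 relative that was at least 2-fold higher there. *Basp1*, which encodes a growth cone protein with properties like GAP43, was 52.0 and 52.3 TPM in the GFP line and 42.2 and 39.9 TPM in the tdTomato line, and so differed from *Gap43* in having nearly level values.

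Other genes of axon extension were examined as a list of 16 genes. In the GFP line 13 were at least 2-fold lower, against 45.0% of all genes, and none was higher, against 14.2%, with a median of -2.08. In the tdTomato line 3 were at least 2-fold lower, against 23.2% of all genes, and 1 was higher, against 17.2%, with a median of -0.55. *Map1b*, a microtubule-associated protein of growing axons, was 277.6 and 48.9 TPM in GFP-negative and GFP-positive cells but 428.1 and 356.6 TPM in tdTomato-negative and tdTomato-positive cells. *Elavl3*, which encodes a neuronal RNA-binding protein, was 286.4 and 40.6 TPM, and 349.7 and 201.0 TPM, respectively. The adhesion gene *Ncam1* was 109.5 and 14.05 TPM in the GFP line and 178.5 and 93.95 TPM in the tdTomato line. *Ablim1*, which encodes an actin-binding protein, and *Elavl4* were lower by a log2 fold change of -2.01 each in the tdTomato line, and *Fscn1* by -1.38. *Shtn1*, which encodes shootin, a protein of axon formation, was at least 2-fold higher there, at 21.7 TPM in negative and 46.1 in positive cells (log2 fold change 1.05), and was 30.9 and 27.7 TPM in the GFP line.

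Transcriptional regulators and receptors of immature neurons (8 genes) had medians near those of the growth genes. All 8 were at least 2-fold lower in the GFP line (median -2.20), and 5 of 8 in the tdTomato line (median -1.03), against 45.0% and 23.2% of all genes. *Nhlh1*, a bHLH factor of newly formed neurons, was 113.7 and 24.4 TPM in GFP-negative and GFP-positive cells, and 71.0 and 38.9 TPM in tdTomato-negative and tdTomato-positive cells. *Cxcr4*, a chemokine receptor of immature OSNs, was 150.1 and 28.8 TPM, and 160.0 and 61.5 TPM, respectively. *Sox11* was lower by log2 fold changes of -2.23 and -1.75. Scaled to mature OSN markers, which multiplies every TPM value of a library by the same factor, the medians of this list were 0.76 and 0.03.

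Earlier stages of the lineage did not share 1 pattern. Of 7 genes of globose basal cells and precursors, 3 were at least 2-fold lower and 2 higher in the GFP line. Of all genes, 45.0% were lower and 14.2% higher there. In the tdTomato line, 4 of the 7 were lower and none higher, against 23.2% and 17.2% of all genes. *Neurod1*, a factor of late precursors, was 58.1 and 4.29 TPM in the GFP line (log2 fold change -3.48) and 44.5 and 5.52 TPM in the tdTomato line (-2.80), a stronger reduction than that of any growth gene. Of 10 genes of cycling cells, 6 were at least 2-fold lower in the GFP line (median -1.16), against 45.0% of all genes. In the tdTomato line 8 were (median -2.13), against 23.2%. *Mki67* was 30.5 and 7.90 TPM in the GFP line and 23.4 and 1.56 TPM in the tdTomato line. *Cdk1* was not lower in either line, at 9.93 and 10.4 TPM, and at 7.75 and 11.9 TPM, respectively. *Stmn1* and the median of the cycling genes were thus lower in both lines, but *Stmn1* was reduced less than the cycling median in the tdTomato line and more in the GFP line. With a pseudocount of 10 the cycling median of the tdTomato line was -1.20, close to -1.01 for *Stmn1*.

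**Figure D4:**
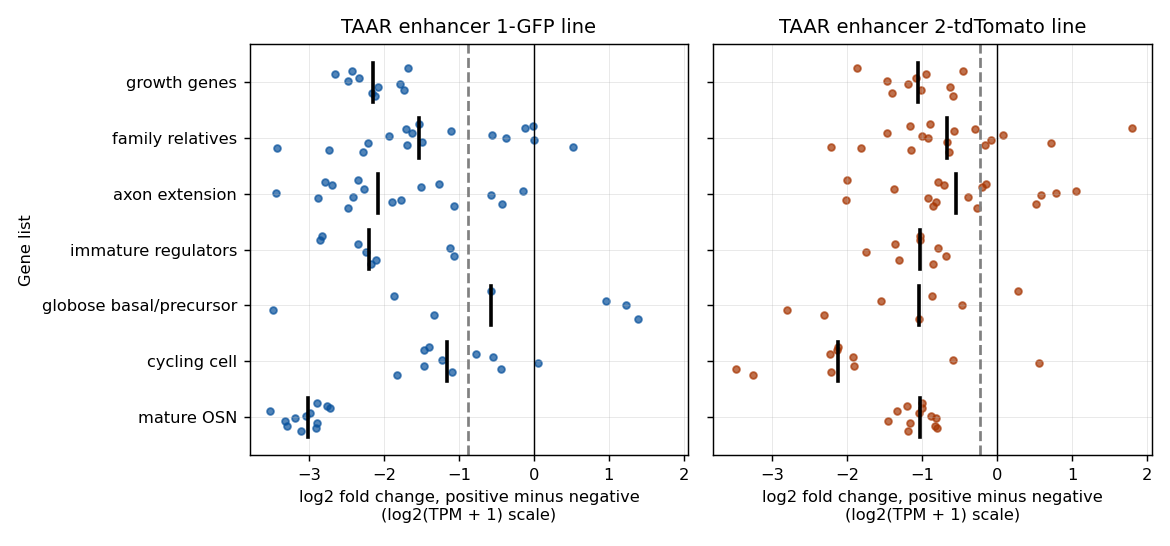
Log2 fold change (reporter-positive minus reporter-negative, log2(TPM + 1) scale) of the genes of 7 lists in both lines, with 1 point per gene that reached 1 TPM in the line, a black bar at each list's median, and a dashed line at the median of all genes. Medians of the growth genes (-2.14 and -1.05) lie near those of the immature regulators (-2.20 and -1.03), and the mature OSN markers (-3.02 and -1.03) lie lower only in the GFP line. With libraries scaled to mature OSN markers, medians of the growth genes become 0.90 and 0.0055.

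Markers of other cells moved with the reporter as well. Their counts at 2-fold stand against 14.2% of all genes higher and 45.0% lower in the GFP line, 17.2% higher and 23.2% lower in the tdTomato line, and 8.42% higher in both. Summed TPM of 6 Bowman gland genes was 2356 in GFP-negative and 112059 in GFP-positive cells, and 6874 and 55432 in the tdTomato line, with all 6 at least 2-fold higher in both lines. Multiciliated cell genes (8) had sums of 593.2 and 2271, and of 541.0 and 7577, with 6 and 8 at least 2-fold higher, respectively, and *Ccdc153* was at 0 in GFP-negative cells. Sustentacular cell genes (7) had sums of 1293 and 12628, and of 2197 and 10316, with 7 higher in the GFP line (median 2.44), and 2 higher and 3 lower in the tdTomato line (median 0.06), where *Cbr2* and *Cyp2a5* made up most of the sum in positive cells. Immune cell genes (7) had sums of 9644 and 2250, and of 4100 and 1826, with 6 of 7 at least 2-fold lower in each line and medians of -5.44 and -5.25. The exception was *Lyz2*, with log2 fold changes of 0.37 and 1.27, which at 2043 and 1707 TPM made up most of the sums in GFP-positive and tdTomato-positive cells. Low sums were found for ensheathing glia (17.1 to 57.8, with 2 of 6 genes at 0 in each library), microvillar cells (42.0 to 222.2), and endothelial and stromal cells (38.7 to 149.8), whose medians were -1.26, 1.47, and 0.02 in the GFP line and 1.23, -1.44, and -0.67 in the tdTomato line. In the GFP line, 1 glial gene was at least 2-fold higher and 3 lower, and 2 microvillar genes were higher and 1 lower. Of the endothelial and stromal genes, 3 were higher and 3 lower there. In the tdTomato line, 3 glial genes were higher and 1 lower. There, 3 microvillar and 2 endothelial and stromal genes were lower, and none was higher. Horizontal basal cell genes (5) had sums of 63.0 and 629.2, and of 151.6 and 29.1, with 4 higher in the GFP line and 5 lower in the tdTomato line. No marker of the sustentacular, immune, and horizontal basal cell lists was at 0 in any library, and the part of these cells in the values of the growth genes was not tested.

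Finally, genes with a similar pattern were sought. Each gene's log2(TPM + 1) values were centred on their mean over the 4 libraries and compared with the mean of the 10 growth genes by Euclidean distance. Among 13000 other genes that reached 10 TPM in a library, the closest were *Fut10* (distance 0.05), *Cabp4* (0.06), *Mtmr7* (0.08), *Pan2* (0.08), and *Tshz1* (0.10). The growth genes themselves were at distances from 0.31 (*Dpysl3*) to 0.87 (*Dcx* and *Marcksl1*), with 85 other genes closer than *Dpysl3* and 2261 closer than *Marcksl1*. A likeness over 4 libraries is a description of these libraries.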

How the data were processed

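RNA-seq of sorted MOE cells was analysed in 4 libraries, with 1 library per group. The authors deposited TPM for 24421 genes, which are listed by their symbols. The methods give mapping to mm10 with Hisat2 2.1.0 and quantification with Cufflinks 2.2.1, whereas the submitters' processing notes name Trimmomatic 0.36 and Salmon 1.4.0. The sources also name different kits, and the annotation is not given in the sources used here. Each library sums to 1000000 TPM, so depth is unknown and no intervals or detection limits were calculated.

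The members and gene lists were chosen with earlier results of these data known. Named genes are the 10 members, genes of the 15 lists that differed 2-fold or had the highest TPM, and the 5 genes with the most similar pattern; genes outside these (*Evc*, *Gm11223*, *Gm20388*) share sequence or position with members, and *Basp1* was named after its values were seen. Of the genes with opposite directions in the lines, 1 is not reported here. Fold changes used a pseudocount of 1 and genes with at least 1 TPM in either library. The code for fold changes, medians, and counts was checked on simulated data with a planted change and without low genes, which does not test the results. Alternatives were pseudocounts of 0.1 and 10, thresholds of 1.5-fold and 4-fold, median-ratio scaling over 11943 genes, rescaling without the 24 genes among the 10 highest of any library, scaling to 12 mature OSN markers, mean log2 values of lists in place of sums, and, chosen after seeing the data, the other line's reporter-negative library as control. Gene positions and shared 50-base windows are from GENCODE M21 (GRCm38), and promoters from RefSeq (GRCm38.p6). Python 3.11.15, NumPy 2.4.6, pandas 2.3.3, and Matplotlib 3.10.9 were used.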

Additional observations from a re-analysis of the deposited data

Results flagged for a closer look

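Genes were singled out when they differed at least 1.5-fold in opposite directions in the 2 lines. With 1 library per group, none of these differences was tested. Scaled to mature OSN markers, *Marcksl1* was the 1 growth gene of this kind, with log2 fold changes of 1.38 in the GFP line and -0.82 in the tdTomato line, a difference of -2.20. In TPM as deposited it was lower in both. Among the relatives, *Dclk2*, a kinase with doublecortin domains, had log2 fold changes of -2.21 and 0.72, a difference of 2.94, and its TPM was 27.4 and 5.12 in the GFP line and 19.5 and 32.9 in the tdTomato line. *Fez1*, an axon extension gene, had -3.44 and 0.78, a difference of 4.22, and was at most 19.6 TPM in any library. The precursor gene *Lgr5* had 0.96 and -1.55, a difference of -2.51, and was at most 5.47 TPM in any library.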

How the results depend on the processing

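No paired analysis was possible because the results come from no test: a line holds 1 library of each kind, and the lines, with different enhancers and reporters, were not treated as replicates. A log2 value was called moved at 0.58 (1.5-fold), and a count at 1.5 times. Pseudocounts of 0.1 and 10 and the rescaling without the highest genes moved no growth gene by that much in either line. The median-ratio scaling moved all 10 in the GFP line, where 7 in place of 10 were 2-fold lower (4 in place of 6 in the tdTomato line), the median of the growth genes was -1.27, the log2 ratio of their summed TPM -1.17, and the median of all genes -0.07. The scaling to mature OSN markers shifted the median of all genes to 2.00 in the GFP line and 0.75 in the tdTomato line. With it, the median of the growth genes was 0.90 and 0.0055, the log2 ratio of their summed TPM 1.02 and 0.12, the number at least 2-fold higher in the GFP line 3, and the number at least 2-fold lower 0 in both lines. In the GFP line the single genes were then at 0.94 (*Gap43*), 0.86 (*Gng8*), 1.33 (*Stmn1*), 0.98 (*Stmn2*), 1.27 (*Dpysl3*), 0.53 (*Dpysl5*), 0.69 (*Crmp1*), 0.41 (*Tubb3*), 0.58 (*Dcx*), and 1.38 (*Marcksl1*), and in the tdTomato line 5 turned, to 0.46 (*Gap43*), 0.041 (*Stmn1*), 0.44 (*Stmn2*), 0.11 (*Tubb3*), and 0.60 (*Dcx*). List medians that turned in the GFP line were 1.52 (family relatives), 2.56 (G protein gamma subunits), 2.47 (globose basal cells and precursors), 0.87 (axon extension), 0.76 (immature regulators), 1.86 (cycling cells), and 0.87 (ensheathing glia), and in the tdTomato line 0.26 (family relatives), 0.37 (G protein gamma subunits), 0.48 (axon extension), and 0.028 (immature regulators). The mature OSN markers themselves, which this scaling sets equal by construction, had medians of 0.043 and 0.031. In the GFP line the gamma subunit median also turned under median-ratio scaling (0.55) and the rescaling without the highest genes (0.21), the precursor median under median-ratio scaling (0.30), and the endothelial and stromal median with a pseudocount of 0.1 (-0.49). The log2 change of growth genes per mature OSN markers in the tdTomato line turned from 0.22 to -0.0054 with mean log2 values and to -0.19 with the other line's control, a control chosen after seeing the data. At a 4-fold threshold, 0 growth genes were lower in the tdTomato line. With the other line's reporter-negative library as control, all 10 growth genes stayed lower in both lines, and *Gap43* and *Gng8* moved, to -1.48 and -1.53 in the GFP line and -1.23 and -2.04 in the tdTomato line. Depth is unknown, so no precision can be given for low values such as those of *Lgr5*.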
